A study of Mus musculus with 6 samples.

Results

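The lysosome and autophagy genes described here are a chosen set of 43 genes for lysosomal hydrolases, lysosomal membrane proteins and the adaptors and regulators of autophagy. They were picked by gene symbol in a table of microarray values, and 42 of the 43 had a probe set that carries their symbol alone, among 22180 genes in all. Glb1, a β-galactosidase, was the exception: its probe set also carries a second symbol, so it was not analysed here. The arrays measured RNA of pancreatic islets from mice aged 5 weeks on the C57BL/6J background, with 3 arrays from β cell-specific Sel1L-deficient mice and 3 from wildtype mice. Sel1L holds together a ubiquitin ligase complex that clears misfolded proteins from the endoplasmic reticulum. The Sel1L-deficient mice had floxed Sel1L alleles and Ins1Cre, a Cre recombinase placed at the Ins1 locus and so driven in β cells. The wildtype mice were littermates with floxed Sel1L alleles, and the labels name no Cre in them, so effects of Cre or of the altered Ins1 allele cannot be told apart from those of Sel1L loss. All mice ate regular chow, and all islets were digested out with Liberase, picked by hand and rested overnight in culture. Whether an array pooled several animals is not stated, so the spread between these arrays may be technical in part. Each p-value rests on that spread, drawn by the test used (limma) toward the spread typical of all genes. By its sex-linked transcripts (below), 1 array of each genotype came from other animals than the rest of its group.

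Lysosomes are acidic organelles in which hydrolases break down proteins, sugars and lipids that arrive by endocytosis or autophagy. Hydrolases carry a mannose 6-phosphate tag from the Golgi to the lysosome, a proton pump, the V-ATPase, keeps the lumen acidic, and autophagy wraps cytoplasm in a membrane that fuses with the lysosome. The transcription factor TFEB and its relatives switch on many of these genes through an E-box sequence near their start sites. In β cells lysosomes also degrade surplus insulin granules, and the same proton pump acidifies those granules.

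Values are log2 values from RMA, a summary of background-corrected and normalized probes, so a difference of 1 is a 2-fold change. The array medians lay between 3.08 and 3.16, and a gene below them was treated as not separated from background. That cut is the median over all probe sets and was not set from control probes. All 6 samples are labelled female, but replicate 3 of each genotype carried male-type transcripts: Xist stood at 3.08 on Sel1L-deficient replicate 3 and at 2.93 on wildtype replicate 3, against 9.93 to 10.4 on the other 4 arrays. Each genotype holds 1 such array, and results are given with and without both. Sel1l itself read 7.73, 7.65 and 7.68 on the Sel1L-deficient arrays and 8.46, 8.56 and 8.76 on the wildtype arrays, 1.87-fold lower with Sel1L loss (limma, Benjamini-Hochberg adjusted p = 0.0312). The islets were rich in hormone transcripts, with group means of Ins2, Gcg and Sst between 10.6 and 12.6.

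Of the 33 lysosomal genes of the set, 1 fell in Sel1L-deficient islets, 32 did not pass the test, and 28 had negative differences, most of them small. Of the 9 autophagy genes 0 passed, and 5 differences were negative and 4 positive; the difference between both groups of genes was not tested. Only Ifi30, a thiol reductase of the lysosome, passed the threshold, an adjusted p under 0.05 in limma over all 22180 genes. That is 1 member that fell, 0 that rose and 41 that did not pass, where 0.153% of all genes fell and 0.0902% rose, 0.243% together. At an unadjusted p under 0.05, 14 members were lower and 1 was higher, where the shares of all genes were 5.04% and 4.45%, 9.48% together, and those of the 11699 genes with both group means above the array medians 7.30% and 5.32%. On 17 of the 42 members (40.5%) all 3 Sel1L-deficient arrays lay below all 3 wildtype arrays, and on 3 (7.14%) all lay above. Among all genes 7.84% lay below and 7.22% above, 15.1% together. Among the brighter genes with both means above the array medians 11.0% lay below and 8.18% above.

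The median difference of the members, Sel1L-deficient minus wildtype, was -0.14 on the log2 scale, against 0.00044 over all genes. Of the 42 differences 33 were negative and 9 positive. The 33 lysosomal members had a median of -0.21, and 16 of them (48.5%) did not overlap on the lower side, 1 (3.03%) did not on the higher side and 16 overlapped. The 9 autophagy members had a median of -0.0032. Fewer cells of a type and less RNA per cell cannot be told apart in whole islets.

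**Figure D1:**
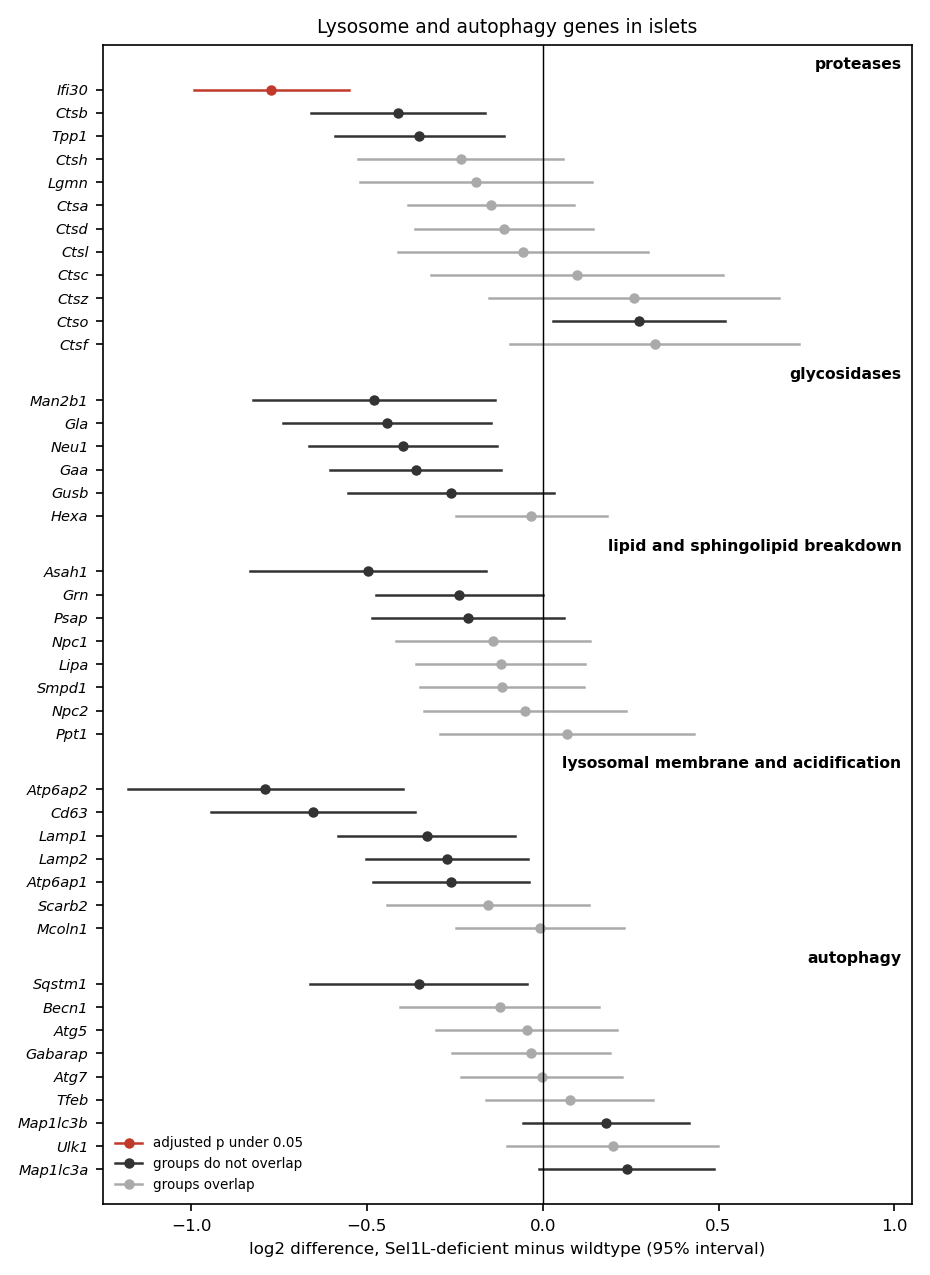
Log2 difference of each of the 42 members, Sel1L-deficient minus wildtype, with its 95% interval from limma, grouped by role and sorted within it. Ifi30 is the member past the threshold, and 17 members, Ifi30 included, had all 3 Sel1L-deficient values below all 3 wildtype values.

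With 1 array left out at a time, the median of the 42 members ranged from -0.18, when wildtype replicate 2 was dropped, to -0.11, when wildtype replicate 1 was. With the 2 arrays of each genotype that carried female-type transcripts alone, the median was -0.10 and 19 members did not overlap on the lower side. On those 4 arrays non-overlap is easier to reach, and 19.8% of all genes were lower. Over the 6 arrays wildtype replicate 1 held the highest value of 21 members and wildtype replicate 3 that of 10. The lowest value was on Sel1L-deficient replicate 1 for 15 members and on Sel1L-deficient replicate 3 for 11. As a median over members, the deviation from each gene's mean was -0.097, -0.066 and -0.096 on the Sel1L-deficient arrays and 0.18, 0.019 and 0.074 on the wildtype arrays, so the genotypes did not overlap.

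**Figure D2:**
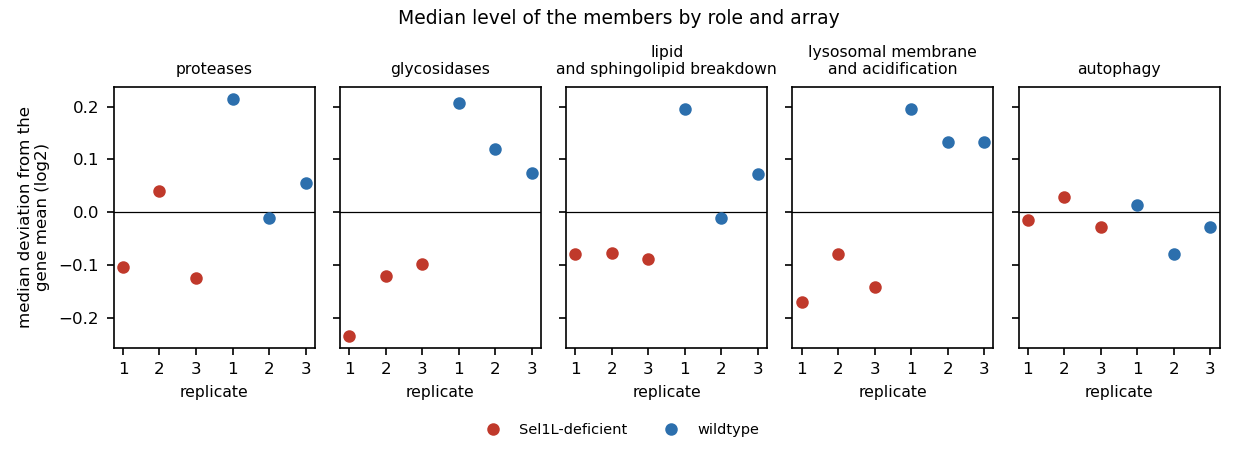
Median deviation of the members from their own mean over the 6 arrays (log2), by role, with 1 point per array and Sel1L-deficient arrays left of wildtype arrays. The genotypes separate for glycosidases, lipid and sphingolipid breakdown, and membrane proteins, and they overlap for proteases and autophagy genes.

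The promoter sequences below are shown because lysosomal genes share the E-box that TFEB and its relatives bind. RefSeq windows of GRCm38.p6, reaching from 250 bases before a gene's start to 50 after it, were at hand for 36 of the 42 members and searched for CACGTG, which reads the same on both strands. It was found in 12 of the 36 members (33.3%) and in 9.19% of the 16990 tested genes with a window. The longer form TCACGTG, on either strand, was in 9 members (25.0%) against 5.13% of those genes, and the form flanked on both sides, TCACGTGA, in 5 members (13.9%) against 1.44%. Each longer form is contained in the count of the shorter one. Stretches are given from 5′ to 3′ on the gene's strand, with the E-box and a flanking T or A in capitals.
Ifi30, chr8:70766842-70766871, minus strand: atccaaaaactTCACGTGAccagacatgct
Gla, chrX:134601182-134601211, minus strand: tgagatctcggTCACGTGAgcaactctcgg
Gla, chrX:134601215-134601244, minus strand: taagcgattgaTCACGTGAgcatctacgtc
Gaa, chr11:119267811-119267840, plus strand: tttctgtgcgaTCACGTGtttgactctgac
Lamp1, chr8:13159088-13159160, plus strand: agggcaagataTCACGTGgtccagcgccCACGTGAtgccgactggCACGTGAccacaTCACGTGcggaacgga
Mcoln1, chr8:3500462-3500491, plus strand: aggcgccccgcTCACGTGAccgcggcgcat
Ctsd, chr7:142387908-142387937, minus strand: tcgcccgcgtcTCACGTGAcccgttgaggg

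Lamp1 carries 4 such E-boxes, the first beginning at -61 and the last at -15 relative to its start. Mcoln1 and Ctsd each carry a further TCACGTG that is not printed, at -71 and -245. For Ifi30, Gla, Gaa and Lamp1 every Sel1L-deficient value lay below every wildtype value, whereas Mcoln1 and Ctsd overlapped between genotypes. The first 4 are the members with TCACGTG among those whose values are given for every array. Mcoln1 and Ctsd were picked after their values were seen, from the 5 others with TCACGTG, and the 3 not shown, Ctsa, Lgmn and Atg7, overlapped too. Over the whole set, CACGTG was in 4 of the 15 members with a window that were lower on all 3 arrays (26.7%) and in 8 of the other 21 (38.1%). TCACGTG was in 4 of the 15 (26.7%) and in 5 of the other 21 (23.8%). A match is a description of the window and not evidence of binding.

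Among the proteases and the reductase, 12 members, 1 fell, 0 rose and 11 did not pass, with a median difference of -0.13. Ifi30, which reduces disulfide bonds of proteins taken into lysosomes and is best known from antigen-presenting cells, read 6.61, 6.62 and 6.71 on the Sel1L-deficient arrays and 7.47, 7.39 and 7.40 on the wildtype arrays. The genotypes were well apart and each was tight, with means of 6.65 ± 0.053 in Sel1L-deficient and 7.42 ± 0.045 in wildtype islets (SD, n = 3 each). Ifi30 fell 1.71-fold, a log2 difference of -0.77 ± 0.10 (SE; limma, adjusted p = 0.032). Its difference lay between -0.80 and -0.75 when any 1 array was left out, but with 5 arrays the adjusted p was 0.0754 to 0.145, so the call was lost without each of the 6 arrays in turn. On the 4 arrays with female-type transcripts the difference was -0.81 (adjusted p = 0.196). The call was also lost with the replicate number as a block.

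Ctsb encodes cathepsin B, a cysteine protease abundant in many cells. It read 9.95, 9.91 and 9.76 on the Sel1L-deficient arrays and 10.4, 10.2 and 10.3 on the wildtype arrays, without overlap. The difference of -0.41 ± 0.11 (SE), 1.33-fold lower, did not pass (limma, adjusted p = 0.27). Tpp1, a tripeptidyl peptidase, read 7.80, 7.68 and 7.70 on the Sel1L-deficient arrays and 8.14, 7.96 and 8.15 on the wildtype arrays, also without overlap and also short of the threshold (difference -0.35 ± 0.10 SE, adjusted p = 0.341).

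The other cathepsins did not share this pattern. Ctso, cathepsin O, had higher values without overlap on the Sel1L-deficient arrays, with 8.63, 8.61 and 8.52, against the wildtype arrays, with 8.29, 8.44 and 8.20 (difference 0.27, 95% interval 0.028 to 0.52, adjusted p = 0.465). The 8 remaining members of this role, Ctsa, Ctsc, Ctsd, Ctsf, Ctsh, Ctsl, Ctsz and the asparaginyl endopeptidase Lgmn, overlapped between genotypes. Their differences reached from -0.23 for Ctsh to 0.32 for Ctsf, which was 0.15 without wildtype replicate 2 and 0.498 without wildtype replicate 1. Ctsh was dim, with means of 3.23 in Sel1L-deficient and 3.46 in wildtype islets, close to the array medians. Cathepsin D, the main aspartic protease of lysosomes, differed by -0.11 with a 95% interval of -0.36 to 0.14. Ctsc and Ctsf were spread widely among wildtype arrays, with SDs of 0.35 each. The median of the role was -0.078 without Sel1L-deficient replicate 3 and -0.081 without wildtype replicate 1.

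Of the 6 glycosidases measured, 0 passed the threshold, but all had negative differences, with a median of -0.38. Without overlap 5 (83.3%) were lower, against 7.84% of all genes. Man2b1, which trims mannose from glycoproteins, read 6.37, 6.39 and 6.59 on the Sel1L-deficient arrays and 7.24, 6.78 and 6.77 on the wildtype arrays. Its difference of -0.48 ± 0.15 (SE; adjusted p = 0.357) leaned on wildtype replicate 1, without which it was -0.33. Gla, the α-galactosidase whose loss causes Fabry disease in humans, read 4.91, 5.15 and 5.22 on the Sel1L-deficient arrays and 5.58, 5.36 and 5.66 on the wildtype arrays. It differed by -0.44 ± 0.13 (SE; adjusted p = 0.328).

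Neu1, a sialidase, read 5.75, 6.01 and 5.91 on the Sel1L-deficient arrays and 6.32, 6.38 and 6.16 on the wildtype arrays, a difference of -0.40 ± 0.12 (SE; adjusted p = 0.331). Gaa, which digests glycogen in lysosomes, read 8.16, 8.24 and 7.99 on the Sel1L-deficient arrays, against 8.48, 8.48 and 8.51 on the wildtype arrays. The wildtype values of Gaa were nearly equal, and the difference was -0.36 ± 0.11 (SE; adjusted p = 0.331). Gusb, β-glucuronidase, differed by -0.26 without overlap, and by -0.14 without Sel1L-deficient replicate 2. Hexa, a β-hexosaminidase subunit, overlapped, and its difference of -0.033 had a 95% interval of -0.25 to 0.18.

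Lipid and sphingolipid breakdown had 8 members, of which 0 passed and 7 were negative, with a median of -0.13. Asah1, acid ceramidase, read 7.52, 7.85 and 8.09 on the Sel1L-deficient arrays and 8.30, 8.30 and 8.34 on the wildtype arrays. The Sel1L-deficient arrays were spread out below a tight wildtype group (SDs 0.28 in Sel1L-deficient and 0.024 in wildtype islets), and the difference of -0.50 ± 0.15 (SE) did not pass (adjusted p = 0.338). It was -0.35 without Sel1L-deficient replicate 1. Psap, the precursor of the saposins that help sphingolipid hydrolases, read 10.0, 10.0 and 9.88 on the Sel1L-deficient arrays and 10.4, 10.1 and 10.1 on the wildtype arrays, 1.16-fold lower with no overlap (adjusted p = 0.65). Its difference was -0.21 on all arrays and -0.12 without wildtype replicate 1.

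Grn, progranulin, a protein delivered to lysosomes partly together with prosaposin, differed by -0.24, also with no overlap (adjusted p = 0.532). The cholesterol exporters Npc1 and Npc2 differed by -0.14 and -0.049, acid lipase Lipa by -0.12, acid sphingomyelinase Smpd1 by -0.12 and the thioesterase Ppt1 by 0.0685. These 5 overlapped between genotypes. Npc1 and Smpd1 each had a second, dimmer probe set, on which the differences were -0.15, at a level not separated from background, and -0.20.

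The lysosomal membrane and acidification genes included Atp6ap2 and Cd63, whose differences were, with that of Ifi30, the 3 most negative of the set. All 7 were negative, with a median of -0.27, and 0 passed. Without overlap 5 (71.4%) were lower, against 7.84% of all genes. Atp6ap2, the prorenin receptor, an accessory subunit of the V-ATPase, read 7.99, 8.10 and 8.53 on the Sel1L-deficient arrays and 8.94, 8.81 and 9.23 on the wildtype arrays. It was 1.73-fold lower (difference -0.79 ± 0.17 SE, adjusted p = 0.185), with replicate 3 the highest array in each genotype. A covariate for the arrays with male-type transcripts gave Atp6ap2 an adjusted p of 0.0452, past the threshold. Its partner Atp6ap1 differed by -0.26 ± 0.10 (SE; adjusted p = 0.441), again without overlap.

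Cd63, a tetraspanin of late endosomes and lysosomes that also sits on secretory granules, read 7.61, 7.99 and 7.91 on the Sel1L-deficient arrays and 8.53, 8.39 and 8.53 on the wildtype arrays. It was 1.57-fold lower, a difference of -0.65 ± 0.13 (SE; adjusted p = 0.145). Lamp1, a main glycoprotein of the lysosomal membrane, read 9.31, 9.45 and 9.61 on the Sel1L-deficient arrays and 9.82, 9.79 and 9.75 on the wildtype arrays. Its relative Lamp2 read 8.86, 8.91 and 8.74 on the Sel1L-deficient arrays and 9.15, 9.10 and 9.07 on the wildtype arrays.

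Both LAMP genes were modestly lower without overlap, with differences of -0.33 ± 0.11 for Lamp1 and -0.27 ± 0.10 for Lamp2 (SE; limma, adjusted p = 0.387 and 0.437). Scarb2, the receptor that carries glucocerebrosidase to lysosomes, differed by -0.16 and overlapped. Mcoln1, the lysosomal calcium channel, differed by -0.0086 with a 95% interval of -0.25 to 0.23.

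**Figure D3:**
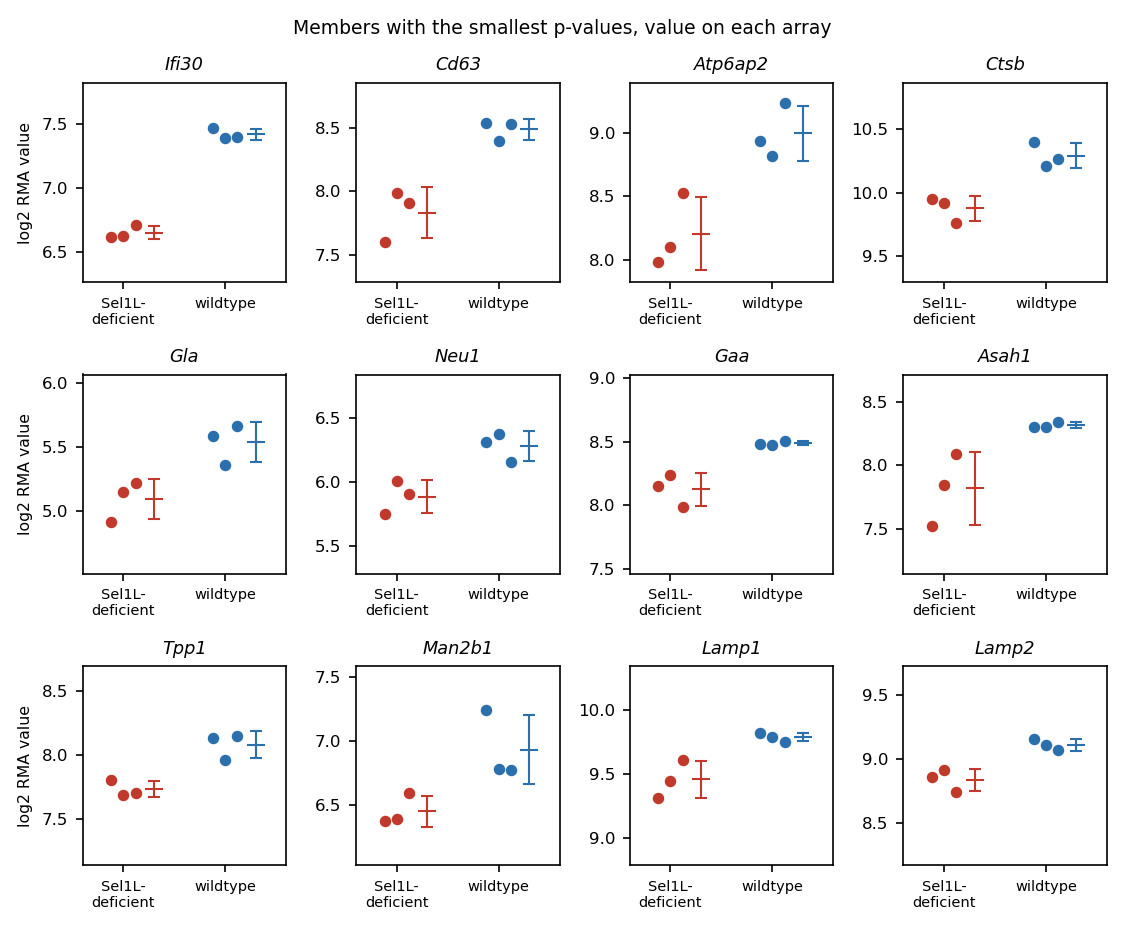
Log2 RMA value on each array for the 12 members with the smallest p-values, in order of p from upper left. Points are arrays (Sel1L-deficient left, wildtype right), horizontal marks with bars are the mean ± SD of 3 arrays, and every panel spans the same height on the log2 axis. In all 12 panels the Sel1L-deficient points lie below the wildtype points, as follows in part from choosing the smallest p-values.

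The 9 autophagy members had 0 past the threshold and 1 at an unadjusted p under 0.05. That 1 was Sqstm1, which encodes p62, a receptor that ties ubiquitinated cargo to the autophagosome membrane. It read 9.14, 9.12 and 9.11 on the Sel1L-deficient arrays and 9.34, 9.33 and 9.76 on the wildtype arrays. The Sel1L-deficient values were nearly equal, and the difference of -0.35 ± 0.13 (SE; adjusted p = 0.454) was -0.21 without wildtype replicate 3.

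The ATG8 proteins coat autophagosomes and hold such receptors. Map1lc3b read 8.53, 8.56 and 8.52 on the Sel1L-deficient arrays and 8.34, 8.25 and 8.47 on the wildtype arrays, higher without overlap and short of the threshold (difference 0.18, adjusted p = 0.658). Map1lc3a was also higher without overlap (difference 0.24, adjusted p = 0.547). Gabarap, of the same family, read 10.38, 10.45 and 10.39 on the Sel1L-deficient arrays and 10.53, 10.41 and 10.39 on the wildtype arrays. Its difference was -0.034 on this probe set and 0.19 on a dimmer one.

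The genes that start and extend the autophagosome overlapped between genotypes. The kinase gene Ulk1 differed by 0.20 (0.078 without Sel1L-deficient replicate 2), Becn1 of the lipid kinase complex by -0.12, and the conjugation genes Atg5 and Atg7 by -0.046 and -0.0032. The intervals of Atg5 (-0.30 to 0.21) and Atg7 (-0.23 to 0.23) show what size of difference these arrays leave possible. A second probe set that names Becn1 together with another gene was not used here. Tfeb, the transcription factor of the E-box, read 2.91, 2.75 and 2.92 on the Sel1L-deficient arrays and 2.86, 2.74 and 2.75 on the wildtype arrays, below the array medians and not separated from background.

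Other genes of the same pathways were read from 7 lists with 173 measured genes, none of which passed the threshold (0 rose, 0 fell in limma). At an unadjusted p under 0.05, 23 of them (13.3%) were lower and 5 (2.89%) higher. The shares of all genes were 5.04% and 4.45%, and those of genes with both means above the array medians 7.30% and 5.32%. The 4 lysosomal lists together had 27 of 86 genes lower on all 3 Sel1L-deficient arrays (31.4%) and 4 higher (4.65%). The 2 autophagy lists together had 0 of 53 lower and 7 higher (13.2%). The shares of all genes were 7.84% and 7.22%, and those of the brighter genes 11.0% and 8.18%. The medians of the lysosomal and the autophagy lists were -0.10 and -0.0030, and the difference between these lists was not tested.

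The V-ATPase had 9 of 16 subunit genes lower without overlap (56.2%) and 0 higher, with a median of -0.22. Of all genes 7.84% were lower without overlap and 7.22% higher. Atp6v1g2, a subunit variant known from neurons, differed by -0.52 ± 0.12 (SE; adjusted p = 0.211), and Atp6v1b2 by -0.22 ± 0.10 (SE; adjusted p = 0.552). Atp6v1a, the catalytic subunit, read 7.53, 7.49 and 7.63 on the Sel1L-deficient arrays and 8.02, 7.80 and 7.93 on the wildtype arrays. It was singled out after its values were seen, as were Gm2a, Vps35, Vps29, Vps26a, Rragd, Fnip2, Tfe3 and Rb1cc1 below.

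Among 23 other hydrolases 6 (26.1%) were lower without overlap and 1 (4.35%) higher, with a median of -0.13. The shares of all genes without overlap were 7.84% lower and 7.22% higher. Scpep1, a serine carboxypeptidase, differed by -0.47 (adjusted p = 0.322) and Ids, iduronate sulfatase, by 0.012. Gm2a, the activator of ganglioside breakdown, was the higher one, by 0.36 (adjusted p = 0.404). The 22 other membrane proteins had a median of -0.0053, with 4 (18.2%) lower and 2 (9.09%) higher without overlap, the latter near the share of all genes. Mcoln3, a cation channel related to Mcoln1, read 3.45, 3.14 and 3.79 on the Sel1L-deficient arrays and 4.18, 4.39 and 4.32 on the wildtype arrays. Its difference of -0.84 ± 0.17 (SE; adjusted p = 0.152) is the most negative of the pathway lists, and 1 Sel1L-deficient value lies close to the array medians. Cd164, a sialomucin, differed by -0.058.

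Sorting genes, which bring hydrolases to the lysosome and receptors back, had a median of -0.12. Without overlap 8 of 25 (32%) were lower and 1 (4%) higher, against 7.84% and 7.22% of all genes. Gga2, an adaptor for the mannose 6-phosphate receptors at the Golgi, read 6.66, 6.80 and 6.79 on the Sel1L-deficient arrays and 7.33, 7.14 and 7.30 on the wildtype arrays (difference -0.51 ± 0.11 SE, adjusted p = 0.176). Of the retromer, which recycles those receptors, Vps35 differed by -0.45 and Vps29 by -0.43 without overlap, while Vps26a differed by -0.17 with overlap (adjusted p = 0.24, 0.292 and 0.752). Rab7, the GTPase of late endosomes, differed by -0.12.

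Of 34 MiT/TFE and mTORC1 regulators, 7 (20.6%) were lower and 3 (8.82%) higher without overlap, with a median of -0.092. Of all genes 7.84% were lower and 7.22% higher without overlap, so the higher share is near that of all genes. Flcn, folliculin, which lets mTORC1 restrain TFEB, read 5.86, 5.66 and 5.91 on the Sel1L-deficient arrays and 6.39, 6.26 and 6.57 on the wildtype arrays, 1.51-fold lower (difference -0.59 ± 0.12 SE, adjusted p = 0.174). Its partner Fnip2 differed by -0.31 and the GTPase gene Rragd by -0.30, both without overlap (adjusted p = 0.387 and 0.404). Tfe3, the TFEB relative, read 6.13, 6.20 and 6.23 on the Sel1L-deficient arrays and 6.40, 6.36 and 6.42 on the wildtype arrays. It differed by -0.21 with a 95% interval of -0.43 to 0.0082. Prkaa1, a catalytic subunit of AMPK, differed by -0.061.

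The 35 autophagosome formation genes had 0 lower and 4 (11.4%) higher without overlap. That share is not far from the 7.22% of all genes and the 8.18% of genes with both means above the array medians. Atg13, a subunit of the ULK1 complex, read 8.36, 8.15 and 8.04 on the Sel1L-deficient arrays and 7.72, 7.72 and 7.92 on the wildtype arrays (difference 0.40 ± 0.12 SE, adjusted p = 0.349). Rb1cc1, the scaffold of that complex, differed by 0.27 (adjusted p = 0.477). Among 18 autophagy receptors, ER-phagy receptors included, 0 were lower and 3 (16.7%) higher without overlap. Pink1, a kinase that marks damaged mitochondria, differed by 0.33 (adjusted p = 0.348) and the ER-phagy receptor Rtn3 by -0.035.

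**Figure D4:**
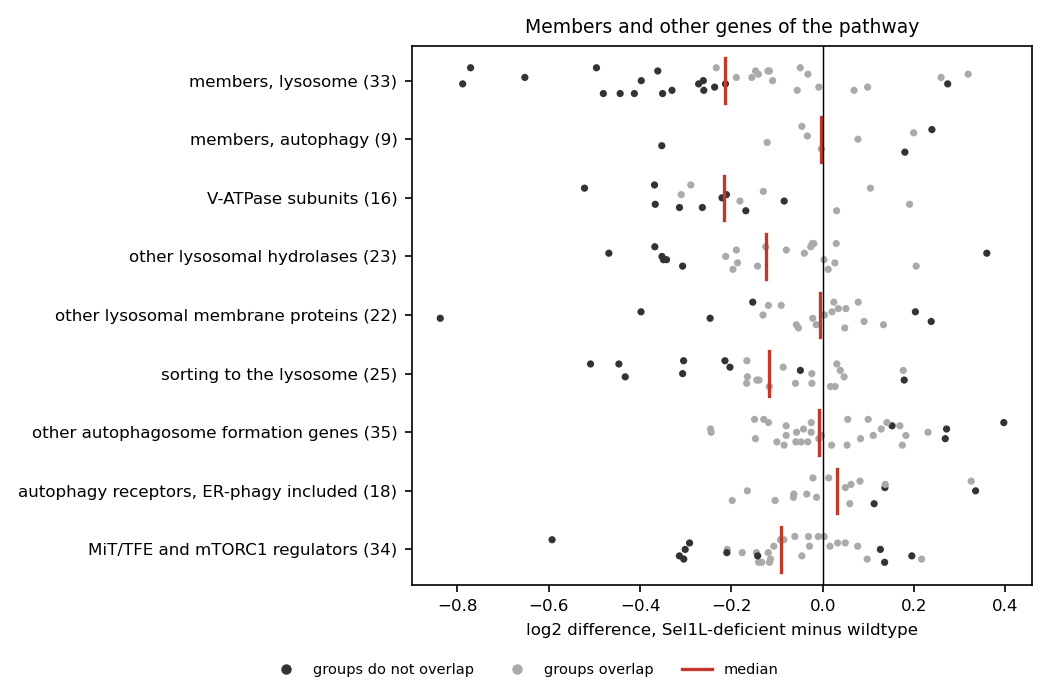
Log2 difference, Sel1L-deficient minus wildtype, of each gene of the members and of the 7 pathway lists, with the number of genes in brackets. Each point is a gene, dark where the 6 arrays do not overlap between genotypes, and red lines are medians. Dark points lie mostly left of 0 in the lysosomal lists and right of 0 in the 2 autophagy lists. In the latter they are 7 of 53 genes (13.2%), where 7.22% of all genes were higher without overlap.

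Lysosomal genes are also active in cells other than β cells, so markers of those cells were read on the same arrays. Of 19 leukocyte markers, macrophage genes among them, 0 passed and 1 (5.26%) was lower without overlap, against 7.84% of all genes. These markers had a median of -0.19. Their mean log2 level was 3.62 to 3.68 on the Sel1L-deficient arrays and 3.66 to 4.0 on the wildtype arrays. Adgre1, Cd14, Aif1, Mrc1, Laptm5, Itgam and Cd52, 7 of the 19, lay below the array medians. C1qb differed by -0.33 and Fcer1g by -0.42 (adjusted p = 0.628 and 0.431), both with overlapping arrays. Of the 19 differences 15 were negative and 4 positive. Among the 7 genes below the array medians, treated here as not separated from background, only Itgam was positive. The list median is the difference of Mrc1, which is among those 7. The part of leukocytes in the fall of Ifi30 was not tested.

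β-cell markers had 4 of 9 that fell (Mafa, Slc2a2, Ucn3 and G6pc2, with log2 differences of -2.11, -1.38, -1.995 and -0.91; limma, adjusted p = 0.00068, 0.0265, 0.013 and 0.0449), and all 9 were lower without overlap. Of all genes 0.153% fell and 7.84% were lower without overlap. The mean log2 level of the β-cell markers was 8.90 to 9.08 on the Sel1L-deficient arrays and 9.73 to 10.0 on the wildtype arrays. Their brightest genes, Iapp and Slc30a8, differed by -0.089 and -0.073. The 12 endothelial markers had a mean level of 6.51 to 6.68 on the Sel1L-deficient arrays and 6.02 to 6.43 on the wildtype arrays, with 0 past the threshold. All 12 differences were positive and 6 (50%) did not overlap, where 7.22% of all genes were higher without overlap; Kdr differed by 0.55 and Emcn by 0.36. The 10 mesenchymal markers stood at 5.27 to 5.53 on the Sel1L-deficient arrays and at 4.51 to 5.28 on the wildtype arrays, with Sparc at a difference of 0.45 and Rgs5 at 0.72. All 10 differences were positive and 3 (30%) did not overlap, where 7.22% of all genes were higher without overlap. Lum, 1 of those 3, and Pdgfra, which overlapped, lay below the array medians. The 7 acinar markers stood at 6.74 to 9.29 on the Sel1L-deficient arrays and at 7.4 to 9.44 on the wildtype arrays, with Ctrb1 at a difference of -0.49 and Cpa1 at -0.75. All 7 differences were negative, and 0 of the 7 were free of overlap. Duct, α-cell, and δ- and PP-cell markers had medians of -0.12, 0.22 and 0.14, with 0 past the threshold, as in the mesenchymal and acinar lists. Their brightest genes differed by -0.12 for Krt7 and -0.20 for Muc1, by 0.034 for Gcg and 0.17 for Ttr, and by -0.026 for Sst and 0.25 for Pyy. The part of these cell types in the lower lysosomal values was not tested.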

How the data were processed

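The authors deposited log2 values made with RMA, per the submitters' processing notes. The RMA version, filters and log base are not given in the sources used here, and log2 was read from the range of the values, 0.526 to 13.0. RMA can compress large ratios. The table held 41345 probe sets, of which 23521 carried 1 gene symbol in the platform annotation (which can be old), 1814 several and 16010 none. Each gene was read from its probe set with the highest mean, which gave 22180 genes, and 3 members had more than 1 probe set.

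Differences, Sel1L-deficient minus wildtype, were tested with limma 3.58.1 in R 4.3.3 (lmFit, eBayes, two-sided) and given Benjamini-Hochberg adjusted p-values across the whole table, with 0.05 as the threshold. The fit was tested on simulated data. The number of arrays, 3 per genotype, limits the precision. The members, lists and tests were chosen with earlier results of these data known. Values on every array are given for members past the threshold, the 12 members with the smallest p and the member with the highest mean in each role. Each pathway list is named by its gene with the highest mean and that with the smallest p. Ctso, Sqstm1, Map1lc3b, Tfeb and further genes marked in the text were added after their values were seen. Other probe set rules, normalizations, priors, covariates and left-out arrays were tried.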

Additional observations from a re-analysis of the deposited data

How the results depend on the processing

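The median of the 42 members stayed within 1 SD between arrays of its value under all 15 alternatives. In this balanced design the other prior, the block and the covariate cannot change a log2 difference or an overlap, so they do not test it. Leaving out 1 of 3 arrays could hardly move the median past that SD. The members lower on all arrays numbered 17 or 18 with all 6 arrays. With fewer arrays non-overlap is easier for every gene: with 1 left out, 18 to 22 members were lower, where 12.1% to 14.2% of all genes were. Calls were less stable. With a trended, robust prior 133 genes passed over all genes, 4 of them members (Ifi30, Cd63, Ctsb and Atp6ap2, adjusted p = 0.0022, 0.0225, 0.0426 and 0.0444), and 2 genes of the pathway lists, Gga2 and Vps35, chosen after their values were seen. With a covariate for male-type transcripts 2 members passed. With the arrays of male-type transcripts removed 1 gene passed, with 0 members and 0 markers. Leaving out 1 array gave 4 to 29 genes, 0 to 0 members and 1 to 3 markers, with 3 to 8 members higher on all arrays left, the 8 being those with wildtype replicate 1 dropped (5 with Sel1L-deficient replicate 2 dropped), where 11.8% to 12.9% of all genes were higher. Fewer arrays were fitted there; the cause of the other shifts was not tested.

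With the replicate number as a block 36 genes passed and 0 members did, Ifi30 having an adjusted p of 0.0711. Over all genes, deviations of same-numbered arrays correlated at 0.105, 0.072 and 0.21, and each array correlated best with its own number. Over the members alone the values were 0.165, -0.18 and 0.26. There Sel1L-deficient replicate 2 correlated better with wildtype replicate 1 (0.165) than with its own number. Replicate 3, with the highest value in both, is the pair with male-type transcripts. The labels state no pairing, so the main fit has no block, and whether the numbers mark pairs is not settled.

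Signs changed only for members with differences between -0.12 and 0.10. Gabarap was 0.079 over both probe sets, Mcoln1 0.0059 and Atg7 0.0013 after quantile normalization, and Mcoln1 0.087 and Becn1 0.00091 on the female-type arrays. Leaving out 1 array gave -0.17 to 0.08003 for Ctsl, -0.081 to 0.19 for Ppt1, -0.037 to 0.049 for Atg7, -0.045 to 0.043 for Mcoln1, -0.14 to 0.055 for Npc2, -0.058 to 0.0088 for Gabarap, -0.12 to 0.024 for Atg5 and -0.044 to 0.30 for Ctsc.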
